A study of Mus musculus with 3 samples.

Results

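The 10 genes described here encode surface proteins used to sort blood stem and progenitor cells: Cd34, Ly6a (Sca-1), Procr (EPCR), Slamf1 (CD150), Cd48, Cd93 (AA4.1), Prom1 (CD133), Cd27, Esam and Thy1 (CD90). They were chosen by symbol as the standard sorting markers of these cells, with no measured value in the rule but with earlier results of these data known. They are 10 of 55196 genes measured in 3 cultures of Ba/F3. Ba/F3 is an immortal mouse haematopoietic line that depends on interleukin-3 (IL-3). The 3 samples were separately grown cultures of this line, each fed RPMI medium containing 10% FCS, penicillin-streptomycin and recombinant murine IL-3 at 0.2 ng/mL, and they form 1 group with no contrast between conditions. Polyadenylated RNA was read from whole cultures, so fewer cells of a type and less RNA per cell cannot be told apart. No primary stem or progenitor cells and no surface protein were measured, and each value describes 1 established line.

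In mouse bone marrow, cells with stem and progenitor activity are enriched among cells that lack mature lineage markers and carry Sca-1 and the receptor KIT. Within that gate, stem cells are recognised by SLAMF1 without CD48, and EPCR and ESAM mark them further, while CD48, CD34 and CD27 are gained on multipotent progenitors. Several of the markers are not confined to blood: CD34, EPCR, CD93 and ESAM are also endothelial proteins, THY1 is abundant on mouse T cells, and CD133 is found on epithelia.

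The gene reads summed to 32044889, 33880292 and 37180883 in cultures 1, 2 and 3. Levels are in CPM, the reads of a gene per 1000000 gene reads of the same culture, so 1 read was worth 0.0312, 0.0295 and 0.0269 CPM. A gene without a read could lie at up to 0.0936, 0.0885 and 0.0807 CPM in the same order, which is 3 reads; these limits and the intervals given here cover counting error only. Mitochondrially encoded RNA took 1.68%, 1.31% and 1.04% of the reads in cultures 1, 2 and 3. A gene was called detected at 1 CPM or more in all 3 cultures. Levels of different genes are compared as CPM per kilobase of the joined exons of a gene.

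Cd48 was the single member detected, so 10.0% of the members passed, beside 19.9% of all genes and 45.9% of the 21958 protein-coding genes. Ly6a and Esam had reads in every culture below the threshold, Cd27 had 6 reads in all, and Slamf1 and Thy1 had 1 read each. Cd34, Procr, Cd93 and Prom1 had no read in any culture, which is 4 of 10 members beside 34.6% of protein-coding genes and 58.4% of all genes. The median over the 10 members was 0.00940 CPM, beside 0.231 CPM over all protein-coding genes.

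**Figure D1:**
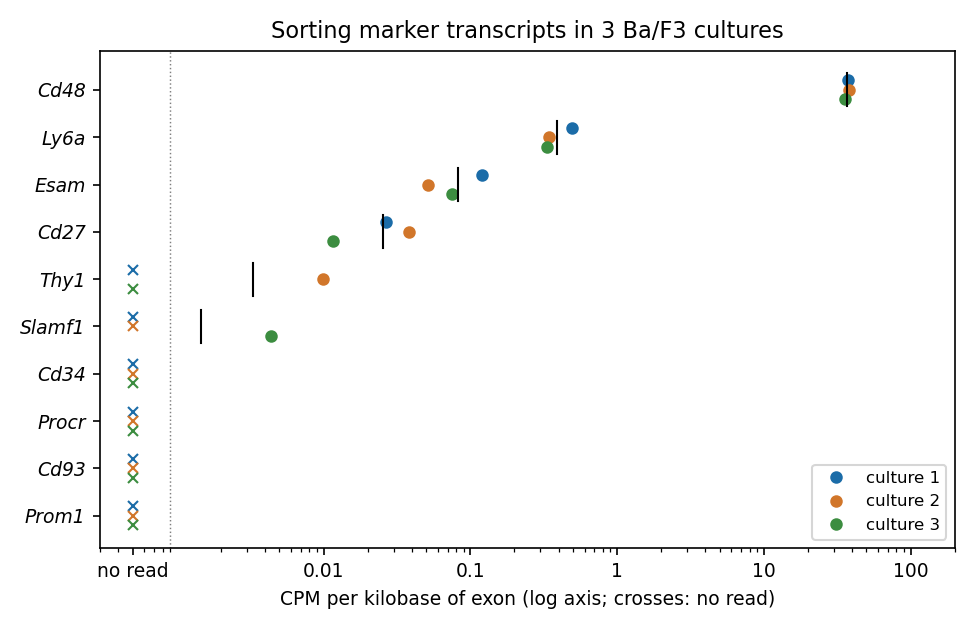
CPM per kilobase of exon (log axis) for the 10 members, with 1 point per culture and a black bar at the mean; crosses left of the dotted line mark cultures without a read. Cd48 stands at 37.0 CPM per kilobase, Ly6a at 0.390 and every other member below 0.1 on average.

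CD48 (SLAMF2) is a glycosylphosphatidylinositol (GPI) anchored member of the SLAM immunoglobulin family, found on most blood cells and absent from most stem cells in mouse marrow. Its gene (ENSMUSG00000015355, GRCm38 chromosome 1, 171682009 to 171705258, plus strand) had 1429, 1525 and 1580 reads in cultures 1, 2 and 3. That equalled 44.6, 45.0 and 42.5 CPM, a mean of 44.0 ± 1.35 (SD, n = 3). The cultures lay close together, with the lowest value in culture 3.

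Per kilobase Cd48 stood at 37.0 ± 1.13 CPM (SD, n = 3), above 87.4% of the detected protein-coding genes, whose median was 9.39 CPM per kilobase. Without the length correction it lay near the middle of them, above 49.1%. None of its 50-base windows occurred in transcripts of another annotated gene (GENCODE M21, both strands), so at this read length its count had no competing transcript.

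Slamf1 encodes CD150, the SLAM receptor that marks mouse stem cells positively in the same sort. It is the next protein-coding gene after Cd48 (ENSMUSG00000015316, chromosome 1, 171767127 to 171801184, plus strand), 61.9 kb downstream of it. It had 0, 0 and 1 read in cultures 1, 2 and 3, or 0.00970 CPM over the summed reads, with an exact Poisson 95% interval of 0.000246 to 0.0540 CPM. Summed over the cultures there were 4534 Cd48 reads for 1 Slamf1 read, a ratio whose exact 95% counting interval reached from 813 upwards. This ratio is not corrected for length, and per kilobase the interval reached from 4211 upwards. Cd48 was thus read in every culture and Slamf1 in 1 of them.

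The promoter windows of this adjacent pair, with that of Cd34, are printed to set the start of the detected member beside the starts of members with 1 read and none (RefSeq, GRCm38.p6, 250 bases before to 50 after the start). Capitals mark GGAA on either strand, the core bound by the ETS factors, among them PU.1.
Cd48 (chr1:171681742-171682041, plus strand): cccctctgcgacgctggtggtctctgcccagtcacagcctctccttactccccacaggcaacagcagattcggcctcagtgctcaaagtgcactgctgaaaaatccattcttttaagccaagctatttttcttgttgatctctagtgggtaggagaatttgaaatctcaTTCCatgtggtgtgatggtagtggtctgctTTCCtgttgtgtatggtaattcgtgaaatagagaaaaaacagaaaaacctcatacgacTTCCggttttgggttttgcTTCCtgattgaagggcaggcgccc
Slamf1 (chr1:171766882-171767181, plus strand): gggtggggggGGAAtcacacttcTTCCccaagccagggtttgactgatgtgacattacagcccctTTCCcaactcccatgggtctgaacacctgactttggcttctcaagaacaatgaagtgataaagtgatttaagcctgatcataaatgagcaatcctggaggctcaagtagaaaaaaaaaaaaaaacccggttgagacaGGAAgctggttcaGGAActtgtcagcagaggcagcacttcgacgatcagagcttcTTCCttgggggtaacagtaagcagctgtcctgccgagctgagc
Cd34 (chr1:194938571-194938870, plus strand): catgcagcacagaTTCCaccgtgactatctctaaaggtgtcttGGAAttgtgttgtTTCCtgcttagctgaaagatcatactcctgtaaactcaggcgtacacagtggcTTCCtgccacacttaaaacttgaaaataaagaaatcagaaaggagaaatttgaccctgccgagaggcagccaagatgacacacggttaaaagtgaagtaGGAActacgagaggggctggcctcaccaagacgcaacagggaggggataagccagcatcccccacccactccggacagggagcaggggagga

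The Cd48 window held 4 GGAA cores, the Slamf1 window 6 and the Cd34 window 5, beside a median of 3 over 32851 windows of the same length, of which 96.0% held at least 1. CG dinucleotides numbered 7 in the Cd48 window, 4 in the Slamf1 window and 7 in the Cd34 window, beside a median of 7. The other members' windows held 4 (Procr), 4 and 8 (Prom1) and 2 (Cd27) GGAA cores, so the count in the Cd48 window lay within the range of the members that were not detected. On both strands none of these 3 windows held TATAAA (13.6% of all windows did), CCAAT (37.4%), GGGCGG (35.7%), AGATAA (11.2%), GAGGAAGT (3.20%), TTCNNNGAA (8.30%) or TGACTCA (5.20%). The GGAA core lies inside GAGGAAGT and can overlap TTCNNNGAA. The table held windows for 6 of the 10 members. The Cd27 window held none of those 7 longer motifs either, the Procr window held TGACTCA, and both Prom1 windows held 1 or more of them.

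The other SLAM genes of the cluster divided in the same way. Cd244a, which encodes 2B4, the receptor for CD48 on natural killer and myeloid cells, stood at 18.0, 16.9 and 15.5 CPM, a mean of 16.8 ± 1.26 (SD, n = 3). Cd84, a self-binding SLAM receptor, stood at 91.4, 91.9 and 90.7 CPM, a mean of 91.3 ± 0.627 (SD, n = 3). Per kilobase the order was Cd48 at 37.0 ± 1.13, Cd84 at 14.6 ± 0.0999 and Cd244a at 3.44 ± 0.258 CPM (SD, n = 3 each), with no overlap between the cultures of these genes. Cd48 was 2.54 ± 0.0616 times Cd84 and 10.8 ± 0.563 times Cd244a per kilobase (SD of the within-culture ratios, n = 3).

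Slamf7 had 3 reads over the cultures, Slamf6 had 2 and Ly9 had 1. Slamf8 and Slamf9, SLAM relatives elsewhere on chromosome 1, had 3 and 7. Of the 9 SLAM genes on the lists used here, Cd48, Cd84 and Cd244a were the 3 detected, beside 45.9% of protein-coding genes. Ly9 lies within Cd244a on the opposite strand, and the strand setting of the counting is not given in the sources used here.

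**Figure D2:**
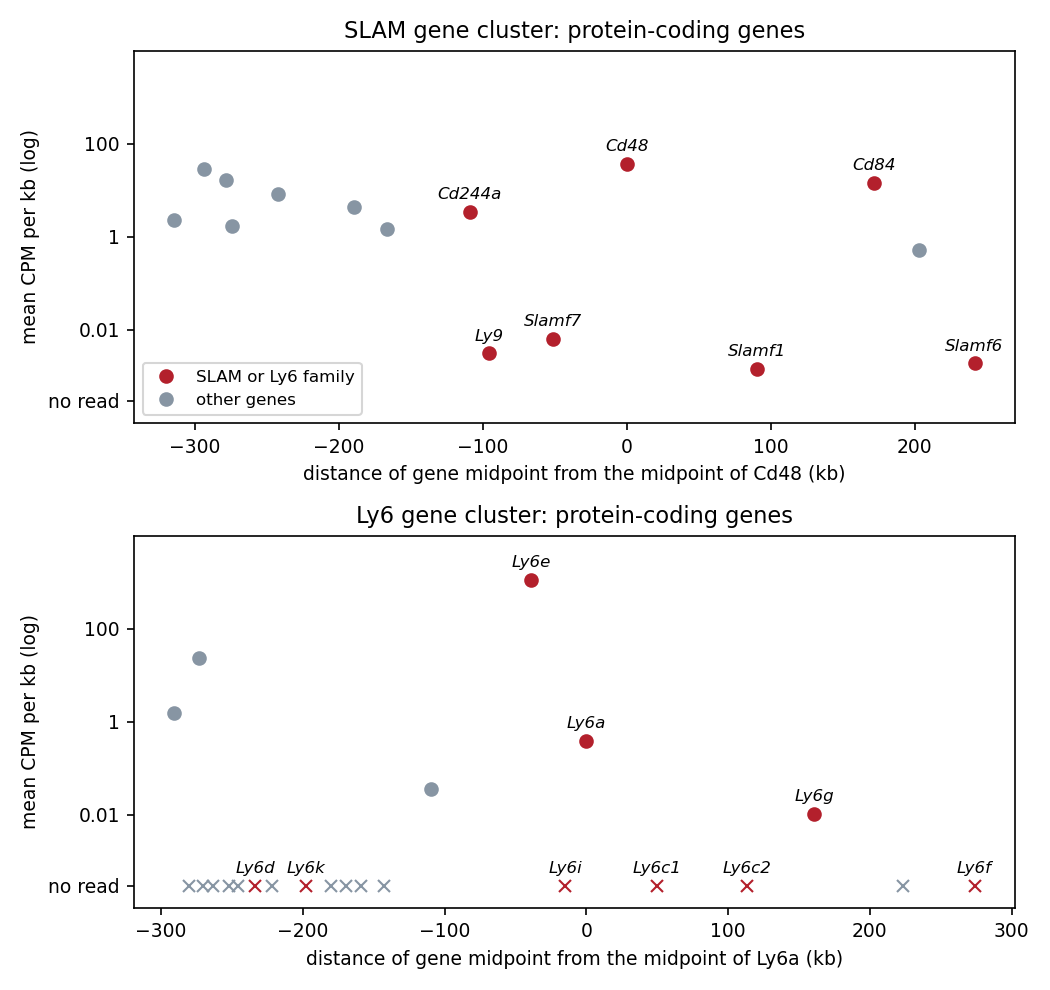
Mean CPM per kilobase (log axis) of protein-coding genes around Cd48 (upper panel) and Ly6a (lower panel), against the distance between gene midpoints in kb. Genes are shown whose span reaches within 300 kb of the lower coordinate of Cd48 or Ly6a, so a midpoint can lie further out. Red marks SLAM and Ly6 genes, grey other genes, and crosses genes without a read. Cd48, Cd84 and Cd244a stand at 3.44 CPM per kilobase or more while the SLAM genes between and beside them stay below 0.01, and Ly6e stands at 1118 beside Ly6a at 0.390.

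LY6A, or Sca-1, is a small GPI-anchored protein of the Ly6 family and the positive marker of the mouse stem and progenitor gate. Its gene (ENSMUSG00000075602, chromosome 15, 74994877 to 74998031, minus strand) had 19, 14 and 15 reads in cultures 1, 2 and 3. That equalled 0.593, 0.413 and 0.403 CPM, a mean of 0.470 ± 0.107 (SD, n = 3). All cultures were under 1 CPM and above the limit set by 3 reads, and culture 1 was highest.

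Per kilobase Ly6a stood at 0.390 ± 0.0885 CPM (SD, n = 3). Cd48 was 95.7 times Ly6a per kilobase over the summed reads, with an exact 95% counting interval of 72.1 to 130. Of the 50-base windows of Ly6a transcripts, 18.97% also occurred in another gene, most of them in Ly6c1, so its count is uncertain where the authors' counting could split or drop such reads. Ly6c1 and Ly6c2, near relatives carried by monocytes and other cells, had no read.

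Ly6e, which encodes a broadly expressed Ly6 protein formerly called Sca-2, lies 39.0 kb from Ly6a between gene midpoints. It had 4221, 4332 and 4140 CPM, a mean of 4231 ± 96.7 (SD, n = 3), or 1118 ± 25.5 CPM per kilobase. Ly6e was 2892 times Ly6a per kilobase over the summed reads (exact 95% counting interval 2181 to 3923). None of the 50-base windows of Ly6e occurred in another gene. Of 23 protein-coding genes whose span reached within 300 kb of the lower coordinate of Ly6a, 3 were detected and 17 had no read. By the same rule around Cd48, 10 of 15 were detected and none was without a read. Over all protein-coding genes 45.9% were detected and 34.6% had no read.

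The sialomucin CD34, the founding progenitor marker and a ligand of L-selectin, is encoded on chromosome 1 (194938819 to 194961279, plus strand). Cd34 had no read in any culture. An antisense gene, Gm16897, shares 148 exon bases with it and had 2, 0 and 0 reads. Podxl, which encodes podocalyxin, a CD34 relative found on blood progenitors and vessels, was read at 294, 307 and 297 CPM, a mean of 299.7 ± 6.76 (SD, n = 3). Per kilobase Podxl, at 54.6 ± 1.23 CPM (SD, n = 3), was 1.48 ± 0.0431 times Cd48 within cultures. Podxl2, the third gene of that family, averaged 1.17 ± 0.0563 CPM (SD, n = 3).

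Procr (chromosome 2, 155751117 to 155755471, plus strand) encodes the endothelial protein C receptor, and Cd93 (chromosome 2, 148436640 to 148443563, minus strand) a C-type lectin-like receptor of early B progenitors and endothelium. Prom1 (chromosome 5, 43993620 to 44102032, minus strand) encodes CD133, a cholesterol-binding protein of membrane protrusions. None of the 3 had a read in any culture. Thbd and Clec14a, relatives of Cd93, and Prom2, the relative of Prom1, had none either, and Cd248, of the Cd93 family, had 5 reads in all. Thbd, the thrombomodulin gene, is the neighbour of Cd93 at a distance of 28.45 kb.

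Esam encodes an endothelial and stem cell junction protein of the immunoglobulin family (chromosome 9, 37528078 to 37538319, plus strand). It had 11, 5 and 8 reads in cultures 1, 2 and 3, or 0.343, 0.148 and 0.215 CPM and a mean of 0.235 ± 0.0994 (SD, n = 3). Every culture was above the limit of 3 reads and under 1 CPM. Its relative F11r, the JAM-A gene of blood cells and epithelia, was detected at 22.7 ± 1.30 CPM (SD, n = 3). Jam2 averaged 0.191 ± 0.0601 CPM (SD, n = 3), Jam3 and Cxadr had 1 read each, and Clmp had none.

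CD27, the tumour necrosis factor receptor family member that binds CD70, is encoded on chromosome 6 (125232622 to 125237010, minus strand). Cd27 had 2, 3 and 1 reads, or 0.0582 CPM over the summed reads with an exact Poisson 95% interval of 0.0214 to 0.127 CPM. Each culture was at or under the limit of 3 reads. Vamp1 overlaps the gene on the opposite strand without sharing exon bases, and was read 1177, 1060 and 990 times. Cd70 had no read. Of the related receptors, Tnfrsf9 (4-1BB) stood at 60.5 ± 1.72 CPM and Tnfrsf18 (GITR) at 5.11 ± 0.516 (SD, n = 3 each), Tnfrsf4 (OX40) averaged 0.877 ± 0.105 without passing, and Cd40 had no read. Of the 50-base windows of Tnfrsf18, 18.7% occurred in another gene, so its count is less certain.

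Thy1 encodes a small GPI-anchored protein of T cells, neurons and, at low density, mouse stem cells (chromosome 9, 44043384 to 44048579, plus strand). It had 0, 1 and 0 reads in cultures 1, 2 and 3. Of 6 T cell genes Lat and Lck were detected at 20.4 and 6.22 CPM, while Cd3d had 7 reads in all, Cd3e 3, Cd4 1 and Cd8a none.

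**Figure D3:**
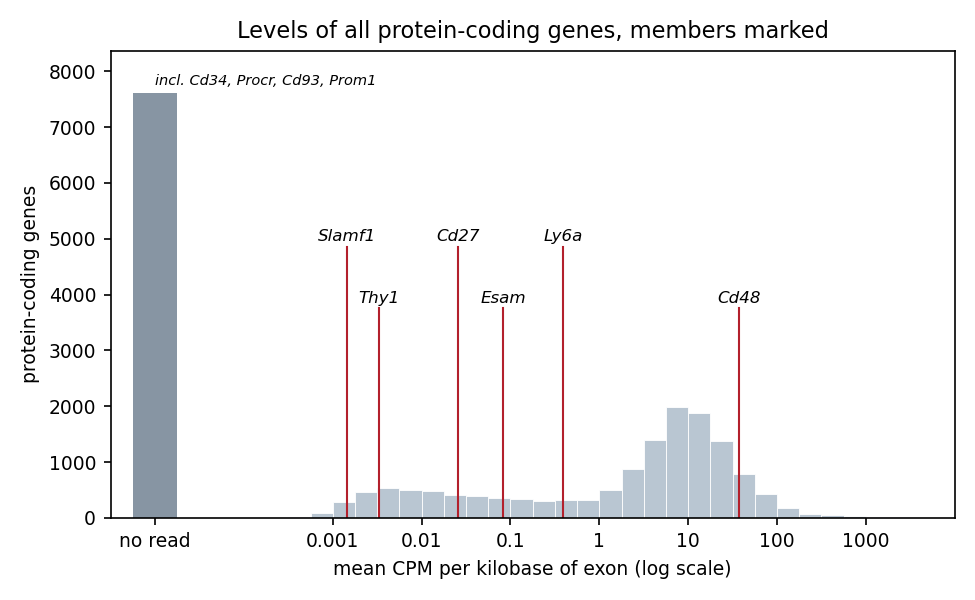
Number of protein-coding genes by mean CPM per kilobase of exon (log scale), with the genes without a read at the left; red lines mark the members with reads. Cd48 falls in the upper part of the main peak, Ly6a, Esam, Cd27, Thy1 and Slamf1 fall in the low tail below it, and 4 members belong to the 7608 genes without a read.

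The order of the members per kilobase was Cd48, Ly6a, Esam, Cd27, Thy1 and Slamf1, followed by the 4 genes without a read. The exact Poisson 95% intervals of Cd48 (35.9 to 38.1 CPM per kilobase over the summed reads), Ly6a (0.285 to 0.512) and Esam (0.0520 to 0.121) did not overlap. From Esam downwards each neighbour in the order overlapped the next, with Cd27 at 0.00917 to 0.0544 CPM per kilobase. The interval of Cd27 lay above those of Slamf1, Cd34, Cd93 and Prom1 and overlapped those of Thy1 and Procr, all over the summed reads.

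No difference between the cultures was called in these genes. A chi-square test of Poisson heterogeneity on the recovered reads, adjusted by Benjamini-Hochberg over 13139 genes with a mean of at least 10 reads, called 0 of the 2 members tested, beside 32.7% of all genes tested. The adjusted p was 0.378 for Cd48 and 0.600 for Ly6a, and 0 members had an unadjusted p under 0.05. With a negative binomial variance of 1 dispersion for all genes, 0 of the 2 were called, beside 9.03% of all genes. The culture with the highest Cd48 level exceeded the lowest 1.06 times (exact 95% counting interval 0.987 to 1.14), and for Ly6a the ratio was 1.47 (0.708 to 3.11). Each pair of cultures was picked by these same values, so the intervals, made for a pair fixed beforehand, do not hold at 95%. The coefficient of variation of Cd48 over the cultures was 3.06%, and 36.1% of the 2223 detected protein-coding genes between 30 and 60 CPM had a lower one, a range chosen after the Cd48 level was seen.

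Of 23 other surface genes used with these markers in sorting, 10 were detected, 6 had no read and the median was 0.163 CPM. The detected share was 43.5%, near the 45.9% of all protein-coding genes, and its difference from that of the members was not tested. Spn, the leukosialin (CD43) gene, stood at 163.9 ± 2.19 CPM per kilobase, Adgrg1, the GPR56 adhesion receptor gene of stem cells and some lymphocytes, at 153 ± 3.38 and Itga2b, the integrin αIIb (CD41) gene of early progenitors and megakaryocytes, at 105 ± 7.35 (SD, n = 3 each). These lie above Cd48, and Spn was 4.43 ± 0.0943 times Cd48 per kilobase within cultures (SD, n = 3).

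Kit, which encodes the receptor paired with Sca-1 in the gate, had 1, 0 and 1 reads. The cytokine receptor genes Flt3 and Il7r, which divide multipotent and lymphoid progenitors, had 1 read each. Alcam, Cd24a and Cd38 had no read. The myeloid progenitor gates use KIT, CD34 and Fc receptors, and of their genes Kit had 2 reads in all and Cd34 none. Fcgr3 and Fcgr2b, which encode the Fc receptors recognised together in that sort, stood at 111 ± 2.47 and 46.4 ± 1.55 CPM (SD, n = 3 each). These receptors share some 50-base windows, 9.58% of those of Fcgr3 and 6.95% of those of Fcgr2b having a copy elsewhere. Kit, Flt3, Il7r, Fcgr3 and Fcgr2b were named here after their values were seen.

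Of 34 family relatives of the members 9 were detected (26.5%) and 14 had no read, with a median of 0.0101 CPM. Over all protein-coding genes 45.9% were detected and 34.6% had no read. Ly6e, Podxl and Tnfrsf9 led them per kilobase, and Cd40, Cd59a and Cd59b were among those without a read. Of 15 ligands and adaptors 8 were detected (53.3%, beside the same 45.9%), with a median of 7.83 CPM. F2r, the thrombin receptor gene whose product is cleaved by activated protein C on EPCR, stood at 17.5 ± 0.369 CPM per kilobase, Crkl, whose adaptor protein binds the CD34 tail, at 16.9 ± 0.777 and Siva1, whose protein binds the CD27 tail, at 13.1 ± 1.80 (SD, n = 3 each). Cd2, a further receptor for CD48 in the mouse, Cd70 and Igfbp7, a CD93 ligand gene, had no read.

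Siva1 differed between the cultures, at 27.5, 31.4 and 36.2 CPM in cultures 1, 2 and 3 (chi-square test of Poisson heterogeneity, adjusted p = 1.53e-08, and 0.0103 with the common dispersion). The mitochondrial share was highest in the culture where Siva1 was lowest, and the total of gene reads rose in the same order as Siva1. With 3 cultures these cannot be told apart, and the part of each in the difference was not tested. With the common dispersion, 1 of the 8 ligand and adaptor genes tested was called, a share near the 9.03% of all genes.

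Ly6a, Cd48 and Thy1 products reach the surface on a GPI anchor, and its synthesis genes were read nearly in full. Of 25 measured, 24 were detected, beside 45.9% of protein-coding genes, at a median of 34.0 CPM over the list. Pigt and Pigs, subunits of the transamidase that attaches the anchor, stood at 45.1 ± 1.82 and 31.1 ± 2.49 CPM per kilobase, and Pigf, which serves the ethanolamine phosphate step, at 22.1 ± 0.443 (SD, n = 3 each). Pigf shared 28.3% of its windows with other genes. Pgap1, which encodes the enzyme that removes the inositol acyl chain after attachment, had 1, 0 and 0 reads. Piga, the gene of the catalytic subunit of the first step, had 146, 122 and 118 CPM. With the common dispersion 2 of the 24 genes tested were called, Piga and Pigm (chi-square test, adjusted p = 0.00806 and 0.00186), a share near the 9.03% of all genes.

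**Figure D4:**
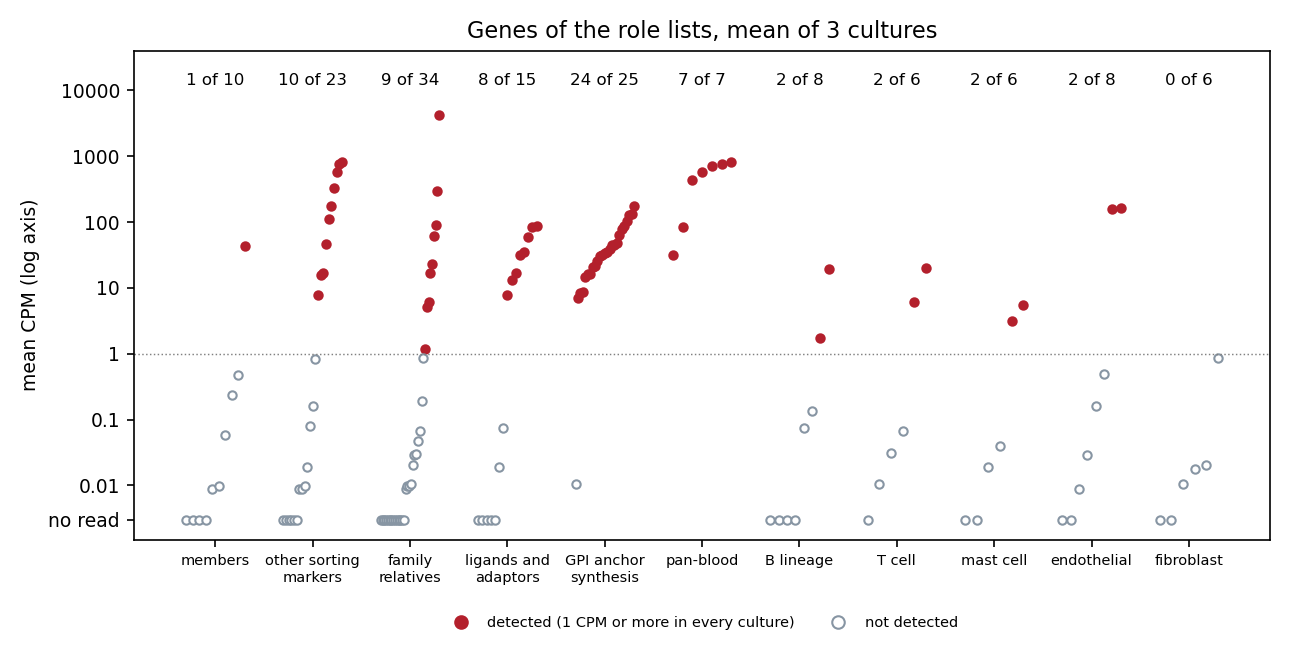
Mean CPM (log axis) of each gene of the member list and of the lists of related genes and cell type markers; filled points were detected in every culture, open points were not, and the numbers give detected of measured genes. The member list has 1 filled point of 10, the other sorting markers have 10 of 23 and the GPI anchor genes 24 of 25.

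Of the cell type marker lists, only the pan-haematopoietic one was detected in full. The B lineage, T cell, mast cell and endothelial lists were detected in part and the fibroblast list not at all. Other blood lineages had no cell type list here. Each count stands beside the 45.9% of all protein-coding genes that were detected. All 7 pan-haematopoietic genes were detected, led per kilobase by Laptm5 at 217 ± 3.92 CPM and Coro1a at 205 ± 24.3 (SD, n = 3 each). The line is haematopoietic and depends on IL-3, so this outcome was largely given by its choice. The list includes Il3ra, the IL-3 receptor alpha chain gene, and Csf2rb, which encodes a beta chain of that receptor. With the Poisson variance 6 of the 7 were called as differing between cultures, beside 32.7% of all genes tested. With the common dispersion 2 of the 7 were called, beside 9.03% of all genes tested. These were Coro1a and Il3ra (chi-square test, adjusted p = 0.00447 and 4.37e-06). Of 8 B lineage genes Cd79b (19.5 ± 1.22 CPM) and Cd79a (1.75 ± 0.118) were detected, and Ebf1 and Igll1 had no read. The detected T cell genes, Lat and Lck, averaged 20.4 ± 0.679 and 6.22 ± 0.343 CPM. Of 6 mast cell genes Cma1 (3.12 ± 0.191 CPM) and Ms4a2 (5.46 ± 0.978) were detected, with Fcer1a and Tpsb2 at no read (SD, n = 3 each).

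Of 8 endothelial genes Egfl7 (163.5 ± 5.97 CPM) and Pecam1 (160.2 ± 4.07), both also expressed in blood cells, were detected (SD, n = 3 each). The defining vessel genes Cldn5 and Emcn had no read, Cdh5 had 1 and Kdr 3 over the cultures, and Tie1 averaged 0.488 ± 0.0736 CPM. The summed level of this list ran from 320.4 to 326.5 CPM over the cultures, nearly all of it from Egfl7 and Pecam1. Of 6 fibroblast genes 0 were detected, with Col1a2 and Lum at no read and Pdgfra at 1.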

How the data were processed

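Polyadenylated RNA of 3 Ba/F3 cultures was sequenced as strand-marked libraries with single-end reads. The authors aligned 50-base reads to GRCm38 with HISAT2 and counted them with their own program GenSum, per the series' design text. Versions, annotation release, strand setting and multi-mapping rule: not given in the sources used here. Values were deposited by the authors as log2(reads per 10000000 + 1). On the linear scale every column totals 10000000, which gave whole reads for 100% of values within 0.01.

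Identifier and symbol point to the same gene in 0 of the 23001 rows with reads. Cultures 1 and 2 follow the identifiers and culture 3 the symbols and coordinates, so culture 3 was joined through GENCODE M21 (54907 rows by coordinates, 354 by a symbol naming 1 gene, 225 unmatched). Among the 120 highest genes, the median difference in log2 of culture 3 from the others was 0.058 after the join and 0.66 before. The authors' average mixes genes and was not used.

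Reads were scaled to CPM; lengths are joined exons of GENCODE M21. Shared windows were 50 bases on either strand. The chi-square test (scipy 1.17.1) took a mean of at least 10 reads, with an adjusted p threshold of 0.05; it compares these libraries, and the spread between cultures is the only replicate error. It was tested on simulated data. The common dispersion was 0.00162. Named genes were all members, and per list the 3 highest per kilobase and up to 3 of the lowest not detected; other relatives and neighbours were named after their values were seen. The members and lists were chosen with earlier results of these data known. Alternatives were other thresholds, scaling, pseudocounts on log2(CPM + 1), lengths, read minimums, and leaving out each culture. Pigy was not among the genes joined, and 1 gene that the rule picks is not reported here.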

Additional observations from a re-analysis of the deposited data

How the results depend on the processing

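The count of members detected stayed at 1 with thresholds of 0.5 and 5 CPM, with detection in at least 1 culture and with median-of-ratios scaling. It also stayed at 1 without each culture in turn (1 to 1). On the rows as deposited the count was 1 but could not rise, since the other 9 members were under 1 CPM in cultures 1 and 2. The count of members beyond counting noise stayed at 0 with a minimum of 50 reads (1 tested), median-of-ratios scaling, the common dispersion and without each culture (0 to 0). It was also 0 with no minimum of reads (6 members tested). There Slamf1 and Thy1, with 1 read each, could not be called wherever that read fell, so this setting says nothing about them. The adjusted p of Cd48 in these chi-square tests lay between 0.351 and 0.985. Of the list counts, the B lineage count became 1 and the mast cell count 0 at 5 CPM, and the fibroblast count became 1 at 0.5 CPM. The family relatives gave 7 at 5 CPM and 10 at 0.5 CPM, the other sorting markers 11 at 0.5 CPM, and no other list count changed with these thresholds. The mean of Cd48 was 45.85 CPM on the rows as deposited, an alternative chosen after seeing the data, because culture 3 is then read from another gene's row. On the log2 scale Cd48 was 5.49 with a pseudocount of 1 CPM and 5.62 with 5. The order of the 6 members with reads was the same with the longest transcript as length. Depth limits the 9 members with 48 reads or fewer. No paired analysis was possible because the samples form 1 group.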
